A study of Homo sapiens with 8 samples.

Results

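The endoplasmic reticulum folding and degradation genes are 32 genes, chosen by name, that fold secretory proteins, discard those that fail to fold, or sense the load. They comprise 11 chaperones and their partners, 6 genes of disulfide bond formation, 7 of degradation, 4 of stress sensing and 4 of translocation and early processing. Of the 32, 31 had a probe set that the platform annotation gives exactly 1 gene symbol, and these 31 were among 16986 genes tested of 22395 measured; each had 1 such probe set, and all 31 passed the filter on low values. The remaining member, HSP90B1, shares its probe set with a microRNA gene and is described apart. RNA was measured on 8 whole-transcript arrays of U-CH1 and MUG-Chor1, cell lines grown from chordoma, a rare tumour of the axial skeleton that resembles the embryonic notochord. Cells of both lines were kept on a gelatin coat, in medium with serum. The U-CH1 control and MUG-Chor1 control groups hold 3 arrays each, from untreated cells. The U-CH1 TNF and MUG-Chor1 TNF groups hold 1 array each, from cells given 10 ng/mL of recombinant human TNF-α, an inflammatory cytokine, with 3 additions a week for 1 week. All values are expression on the log2 scale, so a difference of 1 is a doubling in signal.

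Proteins entering the endoplasmic reticulum pass through the SEC61 channel, are kept soluble by chaperones such as BiP (HSPA5), and are cross-linked by disulfide isomerases that ERO1 oxidases recharge. Proteins that stay misfolded are extracted through a membrane complex built around SEL1L, SYVN1 and the derlins and are broken down by the proteasome. When unfolded protein accumulates, the sensors IRE1 (ERN1), PERK (EIF2AK3) and ATF6 start the unfolded protein response, in which ATF6 and spliced XBP1 act through promoter motifs named ERSE and ERSE-II, and PERK acts through the integrated stress response and its factor ATF4. Cartilage-like and notochord-like cells secrete large amounts of matrix, and this machinery serves that secretion.

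The promoters are shown because such motifs can be set beside the array values. A window of 300 bases, 250 before to 50 after the transcription start, was given by RefSeq (GRCh38.p14) for 29 of the 32 members and for 27305 genes in all. Exact matches were counted on both strands. ERSE was searched as CCAAT, any 9 bases and CCACG, and ERSE-II as ATTGG, any 1 base and CCACG. ERSE was first described in promoters of chaperone genes of this group, so its presence here is background rather than a result. A match of ERSE lay in a window of 9 of the 29 members (31%) and of 25 of the 27305 genes (0.0916%), so these members are 9 of the 25. ERSE-II lay in 3 members (10.3%), HYOU1, HERPUD1 and SDF2L1, and in 19 genes in all (0.0696%). The element UPRE, searched as TGACGTGG, lay in HYOU1 alone of the members and in 0.927% of genes. The amino acid response motif CARE of ATF4 and its partners, searched as TGATGNAA, lay in HERPUD1 alone of the members and in 4.46% of genes. Of the 5 degradation members with a window, 0 had an ERSE and HERPUD1 had an ERSE-II; DERL1, DERL3 and, in the disulfide group, PDIA3 had no window. A match is a description of the letters in this window and not a shown binding site.

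The 250 bases before the start follow for 3 members whose values are given below, read 5′ to 3′ on the gene's strand, with ERSE, ERSE-II and UPRE matches in capitals.
HSPA5 (chr9:125241344-125241593, minus strand): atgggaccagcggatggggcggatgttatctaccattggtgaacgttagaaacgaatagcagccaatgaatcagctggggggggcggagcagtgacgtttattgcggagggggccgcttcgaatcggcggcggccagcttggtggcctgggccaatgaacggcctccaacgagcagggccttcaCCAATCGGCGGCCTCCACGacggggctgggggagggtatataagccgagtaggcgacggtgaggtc
HYOU1 (chr11:119057206-119057455, minus strand): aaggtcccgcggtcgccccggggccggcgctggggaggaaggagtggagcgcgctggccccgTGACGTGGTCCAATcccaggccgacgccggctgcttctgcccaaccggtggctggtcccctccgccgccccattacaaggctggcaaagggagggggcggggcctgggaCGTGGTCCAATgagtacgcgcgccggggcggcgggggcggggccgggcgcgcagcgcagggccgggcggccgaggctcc
HERPUD1 (chr16:56931892-56932141, plus strand): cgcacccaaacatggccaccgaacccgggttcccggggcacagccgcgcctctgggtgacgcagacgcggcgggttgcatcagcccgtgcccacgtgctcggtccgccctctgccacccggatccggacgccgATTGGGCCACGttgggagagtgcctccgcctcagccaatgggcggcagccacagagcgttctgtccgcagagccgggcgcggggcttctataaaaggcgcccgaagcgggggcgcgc
HSPA5 held 1 exact match of ERSE, at positions -66 to -48 from the start. HYOU1 held 2 matches of ERSE-II, both on the opposite strand, and the one farther from the start overlaps the UPRE match. The ERSE matches of other members follow, each read on its gene's strand and shown for how much the middle bases vary between members.
CRELD2: CGTGGCGAACTCGGATTGG
CALR: CGTGGTCGACCATCATTGG
CANX: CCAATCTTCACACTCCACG
PDIA6: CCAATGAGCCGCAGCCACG
ERO1B: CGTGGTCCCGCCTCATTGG
XBP1: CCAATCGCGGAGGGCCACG
SERP1: CGTGGAGACAGCGAATTGG
Those that begin with CGTGG match on the opposite strand. HSP90B1 carried an ERSE on each strand, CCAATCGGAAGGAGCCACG and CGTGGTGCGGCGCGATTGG.

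Array medians were 2.52 to 2.63. Across genes, controls of one line correlated among themselves at 0.960 to 0.970 on average, and with the TNF array at 0.943 for U-CH1 and 0.932 for MUG-Chor1. The notochord factor TBXT, which defines chordoma, read 9.14 to 9.75 on the 6 control arrays. MUG-Chor1 control 3 stood apart from the other two in inflammatory genes, with CCL2 at 3.11 against 1.21 and 0.99 and ICAM1 at 6.75 against 4.55 and 4.24. Among markers of other cells, the mean of 6 leukocyte markers was 2.22 to 2.51 on the controls, 2.58 on the U-CH1 TNF array and 2.26 on the MUG-Chor1 TNF array, and PTPRC, the common leukocyte antigen, read 0.93 to 1.23 on all 8 arrays. The mean of 5 endothelial markers was 2.99 to 3.18 on the U-CH1 controls and 3.43 to 3.69 on the MUG-Chor1 controls. KDR, 1 of the 5, read 4.20 to 5.04 on the former and 6.51 to 7.52 on the latter. Of 5 NF-kB targets used to check the treatment, 3 rose in U-CH1 and 4 in MUG-Chor1. TNFAIP3 stood at 8.44 (U-CH1) and 8.03 (MUG-Chor1) with TNF, against 4.65 to 5.58 on the controls. The exception in MUG-Chor1 was NFKBIA, at 7.51 inside its controls of 7.28 to 7.86, and in U-CH1 ICAM1 and TRAF1 did not pass (adjusted p = 0.115 and 0.0604). The labels do not say whether the controls of a line were separate cultures; if they were not, the p-values reflect technical spread alone. Each line has a lone TNF array, which the model assumes to vary as controls do. More cells expressing a gene and more RNA per cell cannot be told apart in such samples.

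Untreated MUG-Chor1 and untreated U-CH1 differed in the ERO1 oxidases, in PDIA4 and in parts of the degradation and translocation machinery, and no chaperone or sensor gene passed the test. Of 31 members, 7 passed (22.6%, against 18.9% of all genes tested), 1 higher and 6 lower in MUG-Chor1 (10.3% and 8.57% of all genes), so the share of members was near that of all genes. At an unadjusted p under 0.05, 4 were higher and 7 lower (16.6% and 15.1% of all genes, 31.7% in either direction). Control values of the lines did not overlap for 13 members. MUG-Chor1 was wholly above in 3 (9.68%, against 18.1% of all genes) and wholly below in 10 (32.3%, against 18.2%). The median difference of members was -0.11, and that of all genes was -0.04. Calls are from limma, a moderated linear model, at an adjusted p under 0.05 over all genes tested.

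**Figure D1:**
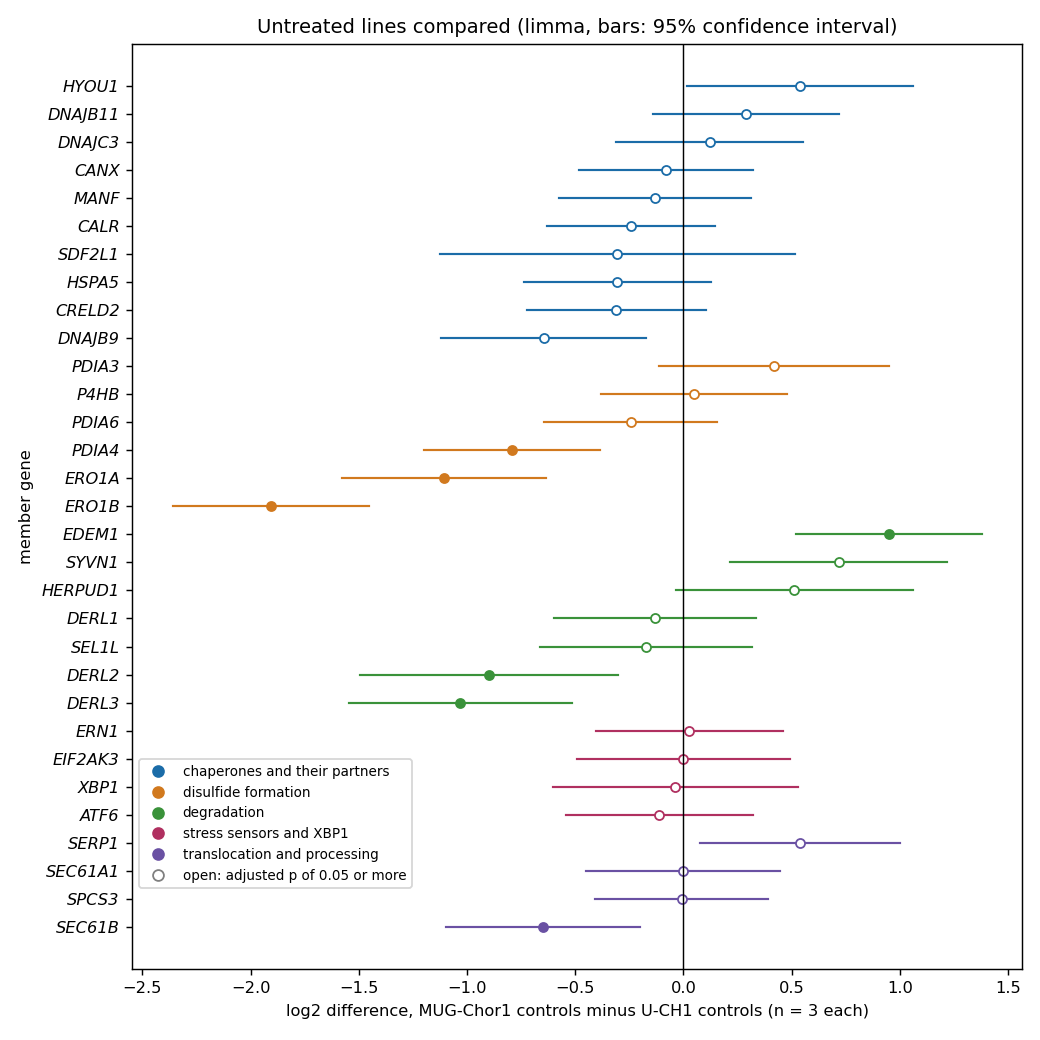
Log2 difference between the untreated lines (MUG-Chor1 controls minus U-CH1 controls, n = 3 each) on the x axis for the 31 members on the y axis, coloured by role, with bars for the 95% confidence interval and filled points for an adjusted p under 0.05. The oxidase gene ERO1B lies farthest to the left at -1.91, EDEM1 is the filled point to the right at 0.95, and the 3 sensors and XBP1 lie within 0.12 of 0.

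ERO1A and ERO1B encode the oxidases that pass disulfides to the isomerases. ERO1B read 4.43, 4.97 and 4.57 on the U-CH1 controls and 2.63, 2.84 and 2.78 on the MUG-Chor1 controls, and was 3.75-fold lower in MUG-Chor1 (log2 -1.91 ± 0.20, SE; adjusted p = 0.000143). All 3 U-CH1 values lay more than 1 unit above every MUG-Chor1 value, which were themselves near the floor of 2.57. ERO1A read 6.83, 6.91 and 7.00 on the U-CH1 controls and 5.65, 5.58 and 6.19 on the MUG-Chor1 controls, 2.15-fold lower in MUG-Chor1 (log2 -1.10 ± 0.21, SE; adjusted p = 0.00501). PDIA4, an isomerase with several catalytic domains, read 7.35, 7.23 and 7.29 against 6.67, 6.36 and 6.46, and was lower by a log2 difference of -0.79 (adjusted p = 0.0131). For these 3 genes no control of one line reached the range of the other. PDIA6, another isomerase, read 6.74, 6.94 and 6.90 against 6.55, 6.60 and 6.70 and did not pass (log2 -0.24, adjusted p = 0.399), although the values did not overlap. P4HB, which is both an isomerase and the beta subunit of collagen prolyl hydroxylase, differed by 0.05, and PDIA3, the isomerase that works with calreticulin and calnexin, by 0.42 at 2.06 to 3.05 around the floor; neither passed.

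Degradation genes were divided between the lines. EDEM1, a lectin that picks glycoproteins for disposal, read 5.77, 5.65 and 5.91 on the MUG-Chor1 controls and 4.59, 4.99 and 4.90 on the U-CH1 controls, and was 1.93-fold higher in MUG-Chor1 (log2 0.95 ± 0.19, SE; adjusted p = 0.00684). SYVN1, the ubiquitin ligase of the complex, read 5.49, 5.31 and 4.97 against 4.19, 4.66 and 4.77 and missed the threshold (log2 0.72, adjusted p = 0.0504). Both genes were higher on every MUG-Chor1 control than on any U-CH1 control. The derlins are membrane proteins of the extraction route. DERL3 read 3.62, 3.34 and 3.80 on the MUG-Chor1 controls and 4.80, 4.20 and 4.86 on the U-CH1 controls, lower in MUG-Chor1 by a log2 difference of -1.03 (adjusted p = 0.0115). DERL2 read 4.71, 4.56 and 5.28 against 5.25, 5.999 and 5.99 (log2 -0.90, adjusted p = 0.0411), with 1 MUG-Chor1 control just above the lowest U-CH1 control. DERL1 differed by -0.13, SEL1L, the scaffold of the complex, by -0.17, and HERPUD1, which helps to assemble it, by 0.51 (adjusted p = 0.187); these 3 did not pass.

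None of 10 chaperone genes passed (limma), against 18.9% of all genes. At an unadjusted p under 0.05, 1 was higher and 1 lower (16.6% and 15.1% of all genes). Lists of 10 chaperone and 4 sensor genes are too short for a count of 0 to set these roles apart. DNAJB9, a co-chaperone of BiP, read 3.87, 4.10 and 3.50 on the MUG-Chor1 controls and 4.27, 4.61 and 4.53 on the U-CH1 controls (log2 -0.65, adjusted p = 0.0600). It passed with quantile normalization (limma, adjusted p = 0.0470) and with arrays shifted to a common median (0.0481). HSPA5 read 9.10, 9.33 and 8.85 against 9.43, 9.41 and 9.35 (log2 -0.31, adjusted p = 0.325). CALR, the lectin chaperone calreticulin, read 10.31, 10.24 and 10.37 against 10.55 on each U-CH1 control (log2 -0.24, adjusted p = 0.386), and CRELD2 4.41, 4.72 and 4.53 against 4.77, 4.97 and 4.84 (log2 -0.31, adjusted p = 0.294). For these 4 genes each MUG-Chor1 control lay under each U-CH1 control, by small amounts. HYOU1, a large chaperone and exchange factor of BiP, had an estimate of 0.54 and did not pass (adjusted p = 0.147). The translocation group held 1 call, SEC61B, a small subunit of the channel, at 7.07, 7.28 and 6.72 in MUG-Chor1 against 7.73, 7.60 and 7.69 (log2 -0.65, adjusted p = 0.0478). SERP1, which associates with the channel, read 4.64, 4.48 and 4.14 against 3.66, 3.94 and 4.05 (log2 0.54, adjusted p = 0.103). SEC61A1, the pore subunit, and SPCS3, a signal peptidase subunit, each differed by less than 0.01.

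The 3 calls for ERO1A, ERO1B and EDEM1 remained when any single control array was left out. Without MUG-Chor1 control 2 they were the 3 remaining calls of 7, those of DERL2, DERL3, PDIA4 and SEC61B having ended. DERL2 also lost its call without U-CH1 control 2, U-CH1 control 3 or MUG-Chor1 control 1, and SEC61B when any 1 of the 6 was left out. Without MUG-Chor1 control 3 SYVN1 passed (log2 0.86, adjusted p = 0.0301). Between the same controls, the fibroblast marker LUM was lower in MUG-Chor1 by a log2 difference of -2.34 and the endothelial marker KDR higher by 2.45. The other endothelial markers did not follow KDR: CDH5, VWF and CLDN5 differed by -0.18, -0.18 and -0.20 and TEK by 0.43, and none of them passed. The part of such differences in the member values was not tested.

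With TNF the MUG-Chor1 array carried higher values of most members. Of the 31, 21 lay above all 3 MUG-Chor1 controls (67.7%, against 35.3% of all genes tested), 0 lay below them (against 23.9% of all genes) and 10 lay within their range. The MUG-Chor1 TNF array was the highest of all 8 arrays for 17 members (54.8%, against 17.5% of all genes). The median difference from the controls was 0.53 over members and 0.06 over all genes. Single genes seldom cleared the test, which rests on 1 TNF array: 1 member passed, ERN1 (3.23%, against 2.88% of all genes, 1.47% higher and 1.41% lower). At an unadjusted p under 0.05, 13 members were higher and 0 lower (41.9% higher, against 7.45% of all genes higher, 5.17% lower and 12.6% either way). Without MUG-Chor1 control 3, ERO1A (log2 1.46, adjusted p = 0.0143) and HYOU1 (log2 1.52, adjusted p = 0.0297) passed too, giving 3.

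**Figure D2:**
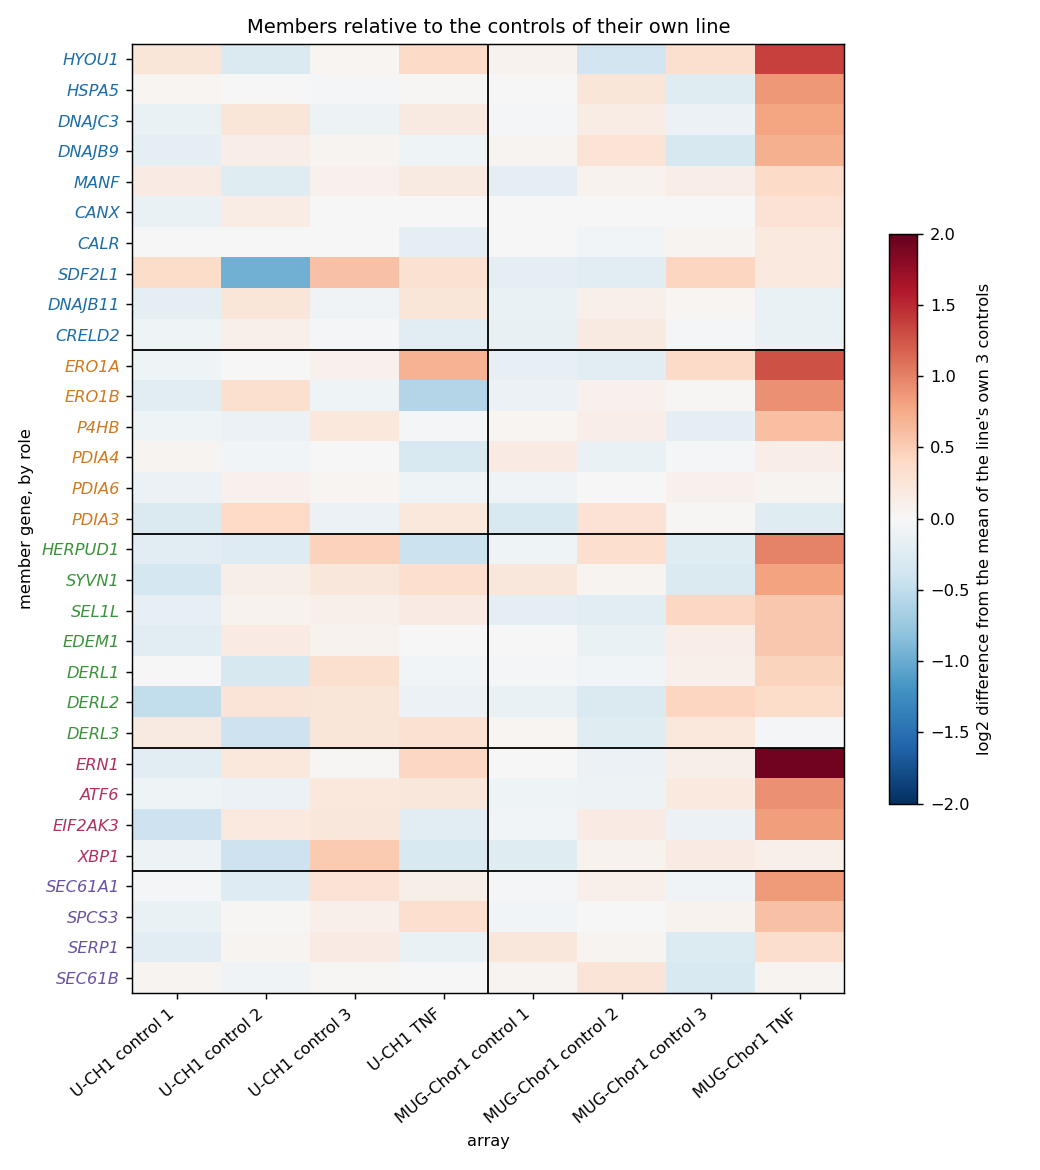
Heat map of the 31 members (rows, by role: chaperones, disulfide formation, degradation, sensors, translocation from the top) on the 8 arrays (columns), coloured by the log2 difference from the mean of the 3 controls of the same line. The last column, the MUG-Chor1 TNF array, is red in most rows, darkest for ERN1 at 1.93, whereas the U-CH1 TNF column holds both signs.

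The sensor genes are described first. ERN1, which encodes the kinase and RNase IRE1, read 3.43, 3.33 and 3.56 on the MUG-Chor1 controls and 5.38 on the TNF array, and rose 3.82-fold (log2 1.93 ± 0.28, SE; adjusted p = 0.00381). The TNF array lay above every control of either line, and the call was kept in all 16 alternatives tried. All 16 use the same lone MUG-Chor1 TNF array, so they cannot show whether another such array would give the call. ATF6, a membrane-bound transcription factor released by cleavage, read 7.32, 7.31 and 7.60 on the controls and 8.33 with TNF (log2 0.92 ± 0.28, SE; adjusted p = 0.137). EIF2AK3, the PERK kinase gene, read 5.48, 5.69 and 5.42 and then 6.36 (log2 0.83 ± 0.31, SE; adjusted p = 0.272). Both TNF values were above every control of either line, and neither passed. XBP1, whose RNA IRE1 splices, read 5.26, 5.57 and 5.66 and then 5.59, inside its control range (log2 0.10, 95% confidence interval -0.70 to 0.90). A value per gene does not separate spliced from unspliced XBP1, so splicing was not measured here.

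**Figure D3:**
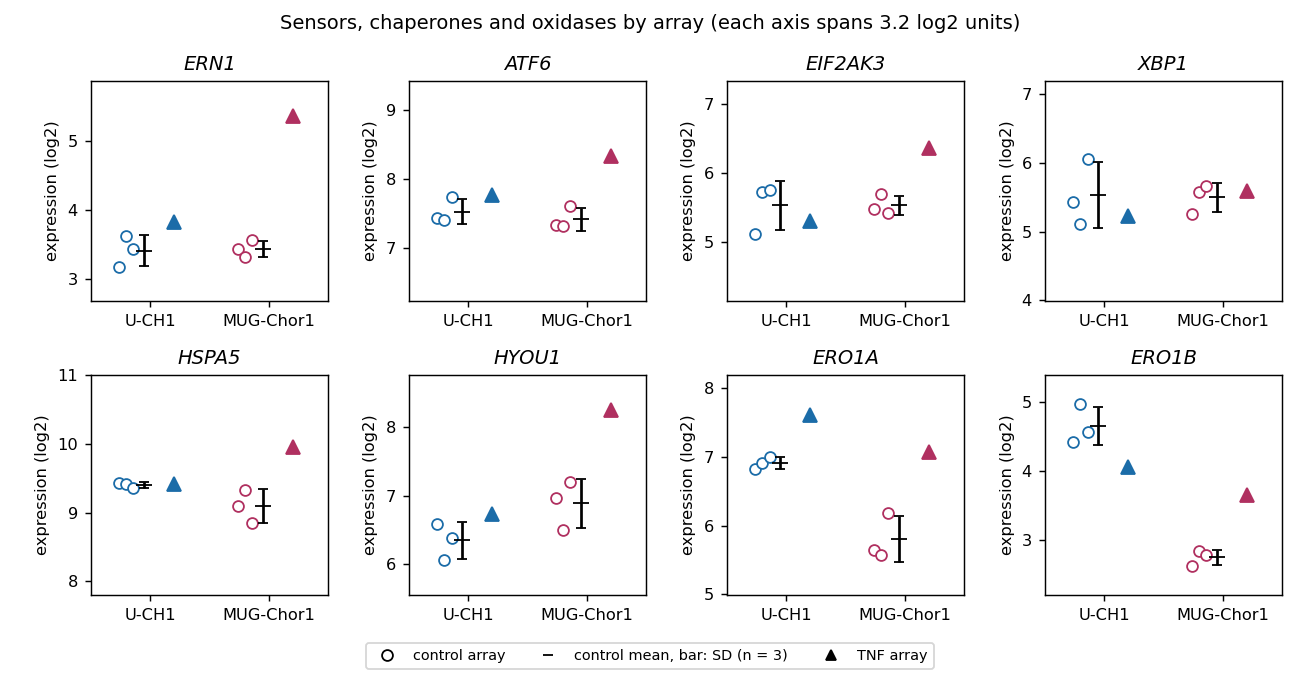
Expression (log2, y axis; each panel spans the same range of 3.2 units) of 8 members by cell line (x axis), with open circles for the 3 control arrays, a bar for their mean ± SD and a triangle for the TNF array. In MUG-Chor1 the triangle lies above all circles for all but XBP1, at 5.38 for ERN1; in U-CH1 it lies above them for ERN1, ATF6, HYOU1 and ERO1A and below them for ERO1B.

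Among the chaperones HYOU1 read 6.96, 6.49 and 7.20 on the MUG-Chor1 controls and 8.24 with TNF (log2 1.36 ± 0.33, SE; adjusted p = 0.0616). HSPA5 read 9.96 with TNF against controls of 8.85 to 9.33 (log2 0.86 ± 0.28, SE; adjusted p = 0.168). DNAJC3, a co-chaperone that also restrains PERK, read 7.70 against 6.79 to 7.06, and DNAJB9 4.53 against 3.50 to 4.10. All 4 TNF values lay above the controls of MUG-Chor1, and all 4 differences had an unadjusted p under 0.05 without passing the adjusted one. The lectin chaperones moved less: CANX differed by 0.29 and CALR by 0.19, the interval of the latter being -0.35 to 0.74. MANF, a secreted factor that binds BiP, differed by 0.39, SDF2L1 by 0.19, DNAJB11 by -0.13 and CRELD2 by -0.14. The range over the 10 chaperone genes was therefore -0.14 to 1.36, with HYOU1 and HSPA5 at its top.

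ERO1A read 7.08 on the MUG-Chor1 TNF array against 5.65, 5.58 and 6.19 on the controls (log2 1.27 ± 0.30, SE; adjusted p = 0.0534), and ERO1B 3.66 against 2.63 to 2.84 (log2 0.91 ± 0.29, SE; adjusted p = 0.167). The TNF value of ERO1A lay within 0.1 of the highest U-CH1 control, 7.00, whereas that of ERO1B stayed under the lowest, 4.43. P4HB differed by 0.60, with a TNF value of 5.80 above all controls, while PDIA4, PDIA6 and PDIA3 differed by 0.13, 0.05 and -0.24 inside their control ranges. In this group the oxidases and P4HB had larger differences than PDIA4 and PDIA6. PDIA3 read 2.06 to 3.05 over the arrays, around the floor of 2.57, so its small difference says little. The MUG-Chor1 controls of ERO1B also lay near the floor.

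Of 7 degradation genes, 5 lay above the MUG-Chor1 controls (71.4%, against 35.3% of all genes). HERPUD1 read 6.26, 6.68 and 6.11 on the controls and 7.35 with TNF (log2 0.99 ± 0.35, SE; adjusted p = 0.227). SYVN1 read 6.06 with TNF against 4.97 to 5.49 (log2 0.81, adjusted p = 0.307), EDEM1 6.31 against 5.65 to 5.91 (log2 0.53), SEL1L 7.41 against 6.66 to 7.28 (log2 0.54) and DERL1 7.83 against 7.32 to 7.49 (log2 0.45). DERL2 at 5.22 and DERL3 at 3.56 lay within their control ranges. In the translocation group SEC61A1 read 10.02 with TNF against controls of 9.11 to 9.28 (log2 0.84 ± 0.29, SE; adjusted p = 0.201). SPCS3 read 6.86 against 6.23 to 6.35 and SERP1 4.78 against 4.14 to 4.64, while SEC61B at 7.08 lay inside its range. None of these 11 genes passed (limma), against 2.88% of all genes. At an unadjusted p under 0.05, 4 were higher, against 7.45% of all genes.

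Other genes moved on the same MUG-Chor1 array. Of 8 chordoma markers 4 fell (50%, against 1.41% of all genes), TBXT, KRT19, CD24 and SOX9, and their list mean was 5.22 against 6.72 to 6.91 on the controls. Of 5 fibroblast markers 3 rose (60%, against 1.47% of all genes), FAP from 1.63 to 2.29 on the controls to 5.71, LUM from 5.99 to 7.54 up to 10.65, and DCN from 1.46 to 1.58 up to 3.11. FAP exceeded the floor of 2.57 on this array alone and entered the tests only through it, and the 60% includes it. COL1A1 at 3.91 lay within its control range and THY1 at 3.80 below its own. The list mean was 5.43 against 3.37 to 4.20 on the controls. Of 5 endothelial markers KDR, a VEGF receptor gene, fell, from 6.51 to 7.52 on the controls to 4.71 (log2 -2.37, adjusted p = 0.0121), VWF at 2.91 lay above its controls without passing, and the list mean was 2.87 against 3.43 to 3.69. Of 4 leukocyte markers tested none passed (limma; 0 at an unadjusted p under 0.05). The part of these changes in the higher member values was not tested.

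In U-CH1 no member passed (limma; 0 of 31, against 1.27% of all genes, 0.913% higher and 0.359% lower). At an unadjusted p under 0.05, 1 member was higher and 0 lower (3.23% higher, against 6.99% of all genes higher, 3.80% lower and 10.8% either way). The U-CH1 TNF array lay above all 3 of its controls for 9 members (29%, against 30.8% of all genes) and below them for 5 (16.1%, against 23.4%), and the median difference was -0.01, with 0.04 over all genes. ERO1A, the gene with the unadjusted call, read 7.60 against 6.83, 6.91 and 7.00 (log2 0.69 ± 0.30, SE; adjusted p = 0.445). ERN1 read 3.83 against 3.18, 3.62 and 3.44 (log2 0.42, adjusted p = 0.685), and ATF6 7.76 against 7.43, 7.40 and 7.73. HSPA5 at 9.42 lay within its controls of 9.35 to 9.43, and XBP1 at 5.23 within 5.11 to 6.06. EIF2AK3 at 5.29 and DNAJB9 at 4.39 also lay inside their control ranges. ERO1B, at 4.06, lay below controls of 4.43 to 4.97 (log2 -0.59 ± 0.29, SE; adjusted p = 0.506), and HERPUD1, at 5.42, below controls of 5.59 to 6.29 (log2 -0.42). Of 4 leukocyte markers tested on the U-CH1 TNF array none passed, and 2, TYROBP at 3.75 (controls 2.81 to 3.11) and CD14 at 3.45 (controls 2.49 to 2.86), were higher at an unadjusted p under 0.05; their part in the member values was not tested. Of 8 chordoma markers none passed in U-CH1 (limma), but all 8 differences were below 0 (median -0.54). The U-CH1 TNF array lay below all its controls for 5 of them (62.5%, against 23.4% of all genes). KRT19 differed by -1.03 and TBXT by -0.69. The part of these marker differences in the member values was not tested either. On the fitted scale members ran from -0.59 to 0.69 in U-CH1 and from -0.24 to 1.93 in MUG-Chor1.

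**Figure D4:**
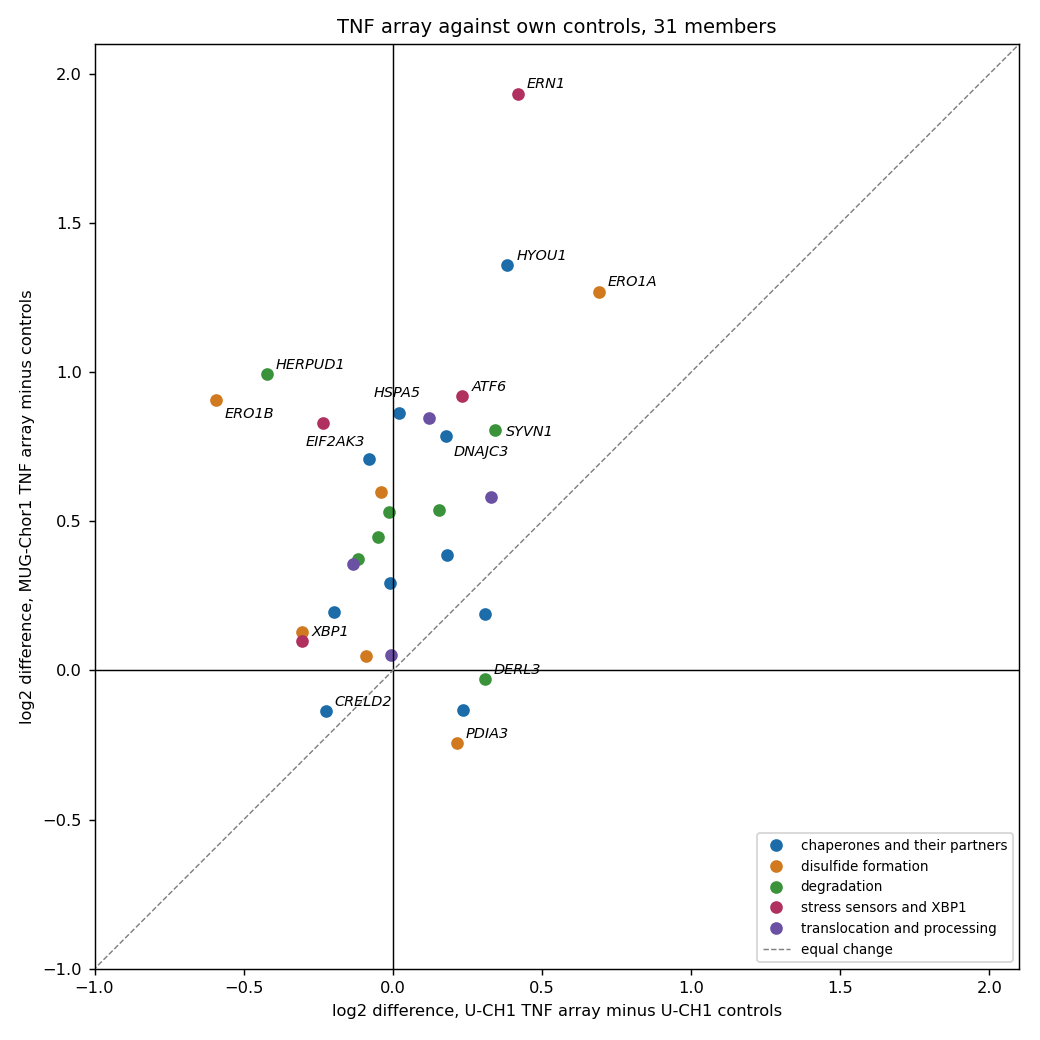
Log2 difference of the TNF array from the mean of its own 3 controls in U-CH1 (x axis) and MUG-Chor1 (y axis) for the 31 members, coloured by role, with a dashed line for equal change. Most points lie above the line: 27 of 31 differences were larger in MUG-Chor1, with ERN1, HYOU1 and ERO1A highest, and ERO1B and HERPUD1 below 0 in U-CH1 and near 1 in MUG-Chor1.

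Whether TNF acted differently in the lines was tested gene by gene as the MUG-Chor1 difference minus the U-CH1 difference. No member passed (limma; 0 of 31, against 0.530% of all genes, 0.200% higher and 0.330% lower). At an unadjusted p under 0.05, 4 were higher and 0 lower (12.9% higher, against 3.41% of all genes higher, 3.95% lower and 7.36% either way). The estimate was above 0 for 27 members, and the median was 0.49, with 0.02 over all genes. The 4 genes were ERN1 at 1.52 (95% confidence interval 0.65 to 2.38; adjusted p = 0.183), ERO1B at 1.50 (0.60 to 2.41; adjusted p = 0.213), HERPUD1 at 1.42 (0.32 to 2.52; adjusted p = 0.426) and EIF2AK3 at 1.06 (0.08 to 2.05; adjusted p = 0.602). For HSPA5 the interval was -0.02 to 1.71, and for ERO1A, which was above its controls in both lines, -0.36 to 1.52. The intervals are wide because each rests on 2 TNF arrays, so they bound the difference loosely in either direction.

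Across both lines, in a model with line and TNF as terms, 1 member passed (3.23%, against 2.48% of all genes, 1.55% higher and 0.930% lower). ERO1A rose by a log2 difference of 0.98 ± 0.22 (SE; adjusted p = 0.0470), with U-CH1 controls at 6.91 ± 0.09 and MUG-Chor1 controls at 5.81 ± 0.33 (SD, n = 3 each) and TNF arrays at 7.60 and 7.08. Its value was above the controls in both lines. The call ended without U-CH1 control 1, 2 or 3, without MUG-Chor1 control 1 or 2, and without either TNF array (adjusted p = 0.0534 without that of U-CH1 and 0.445 without that of MUG-Chor1); it was kept without MUG-Chor1 control 3. ERN1 followed at 1.18 ± 0.30 (SE; adjusted p = 0.0650), HYOU1 at 0.87 (adjusted p = 0.132) and ATF6 at 0.58 (adjusted p = 0.214). At an unadjusted p under 0.05, 7 members were higher and 0 lower (22.6% higher, against 9.87% of all genes higher, 5.45% lower and 15.3% either way).

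Set beside the promoters, TNF differences in MUG-Chor1 had a lower median in members with an exact match of ERSE or ERSE-II than in those without one. The 11 measured members with a match had a median of 0.29, from -0.14 in CRELD2 to 1.36 in HYOU1. The 17 with a window and no match had a median of 0.60, up to 1.93 in ERN1, with ERO1A, ATF6, EIF2AK3 and SEC61A1 among them. In U-CH1 the medians were -0.13 and 0.16. The ranges overlap widely in both lines. Members with a match and a larger value were HYOU1, HERPUD1, ERO1B and HSPA5, and members with a match and a small one were CALR, CRELD2, PDIA6, SDF2L1 and XBP1. Near matches were not counted, so a member without a match may still hold a variant of the element. Windows of this length do not cover elements farther away, and no test was made.

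The integrated stress response, the arm that PERK shares with other kinases, held more calls than the members did. Of 18 genes listed for it, 7 rose on the MUG-Chor1 TNF array and none fell (38.9%, against 2.88% of all genes, 1.47% higher and 1.41% lower). In U-CH1 0 of the 18 passed (limma), against 1.27% of all genes, so this count is near the share of all genes. At an unadjusted p under 0.05 there were also 0 in U-CH1, against 10.8% of all genes. The list's median difference was 0.79 for MUG-Chor1, with -0.03 for U-CH1. SLC7A11, the cystine transporter gene, read 6.84, 6.74 and 7.33 on the MUG-Chor1 controls and 9.53 with TNF (log2 2.56 ± 0.32, SE; adjusted p = 0.00176), and in U-CH1 7.10 against 6.78 to 7.28. PSAT1, of serine synthesis, read 5.49, 5.76 and 5.48 and then 7.78 (log2 2.21 ± 0.29, SE; adjusted p = 0.00233), and in U-CH1 7.16 against 7.22 to 7.72. SESN2, a stress-induced inhibitor of mTORC1, rose by 2.50, and DDIT4, another such inhibitor, by 2.03. The other risers were CHAC1, which degrades glutathione, TRIB3, a pseudokinase that ATF4 induces, and CEBPB. Effects of TNF differed between the lines for SLC7A11 (log2 2.52, adjusted p = 0.0450) and PSAT1 (log2 2.50, adjusted p = 0.0315), which are 2 of the 18. Both calls of a difference ended without U-CH1 control 1 or 3 or MUG-Chor1 control 1 or 2. In MUG-Chor1 ATF4, the factor of this response, stood at 0.39 (adjusted p = 0.774). DDIT3, which encodes CHOP, stood there at 1.29 (adjusted p = 0.0920). These 2 genes are named after their values were seen. Between untreated lines 5 of the 18 passed (27.8%, against 18.9% of all genes). VLDLR, a lipoprotein receptor gene, differed by -2.23, PSAT1 by -1.88, CHAC1 by -1.82 and DDIT4 by -0.86, all lower in MUG-Chor1, whereas DDIT3 was higher there by 0.97 (adjusted p = 0.0201).

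**Figure D5:**
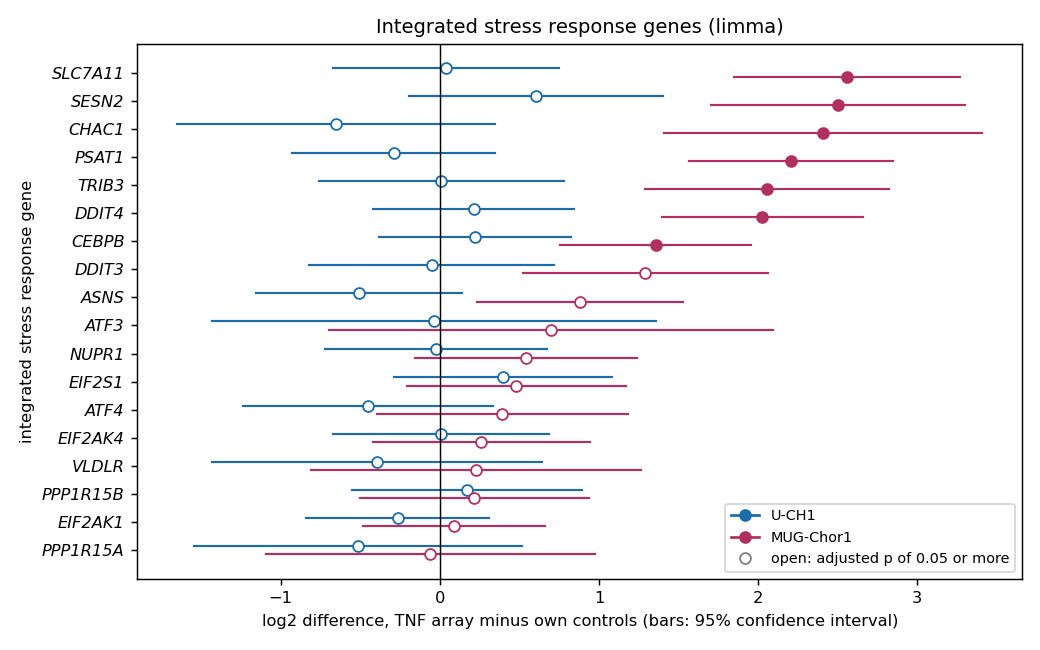
Log2 difference of the TNF array from its own controls (x axis) for 18 integrated stress response genes (y axis) in U-CH1 and MUG-Chor1, with bars for the 95% confidence interval and filled points for an adjusted p under 0.05. The 7 filled points are all of MUG-Chor1, between 1.36 for CEBPB and 2.56 for SLC7A11, and the U-CH1 points lie between -0.65 and 0.60.

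Further genes of the same organelle showed few calls with TNF, as did all genes tested. Of 22 other folding genes, 21 other degradation genes and 19 other translocation genes, 0 passed in either line (limma; 3, 1 and 3 higher and 0 lower at an unadjusted p under 0.05 in MUG-Chor1, 0, 2 and 0 higher and 1, 0 and 0 lower in U-CH1). Counts of 0 in lists of this size are near the shares of all genes called, 2.88% in MUG-Chor1 and 1.27% in U-CH1. At the unadjusted threshold 7.45% of all genes were higher and 5.17% lower in MUG-Chor1, and 6.99% and 3.80% in U-CH1. Medians of the folding, degradation and translocation lists in MUG-Chor1 were 0.34, 0.23 and 0.33. The MUG-Chor1 TNF array lay above all its controls for 16 of the 22 folding genes, 10 of the 21 degradation genes and 12 of the 19 translocation genes (35.3% of all genes). Of 11 other sensor and regulator genes, CREB3L2, a membrane-bound factor of the ATF6 kind with a role in cartilage secretion, fell by 1.56 in MUG-Chor1 (adjusted p = 0.0139). Between untreated lines, 6 of the 22 folding genes passed (27.3%, against 18.9% of all genes), 5 lower and 1 higher in MUG-Chor1: FKBP14, a collagen-folding prolyl isomerase, at -1.31, PDIA5, an isomerase (adjusted p = 0.00336), QSOX1, a disulfide-forming oxidase, at -0.98 and CDNF, a relative of MANF, at 0.77 had the smallest p-values. Of the 19 translocation genes 3 passed (15.8%): SERP2 was higher by 1.57, and SEC63 and SSR1 were lower by 1.02 and 0.89. SERP2 read 2.05 to 2.35 on the U-CH1 controls, under the floor of 2.57, and passed the filter only through the MUG-Chor1 arrays, where it is high. Of the 21 degradation genes 1 passed (4.76%), HM13, a signal peptide peptidase, lower by 0.66. The shares of 15.8% and 4.76% were under that of all genes.

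HSP90B1, the chaperone GRP94, could be read only from a probe set that the annotation also gives to MIR3652. That probe set read 9.99, 9.79 and 9.87 on the U-CH1 controls and 9.46 with TNF, and 9.44, 9.30 and 9.40 on the MUG-Chor1 controls and 9.24 with TNF. Both TNF values were under all controls of their line. With such probe sets included in the fit, the difference was -0.42 in U-CH1 (adjusted p = 0.626), -0.14 in MUG-Chor1 (adjusted p = 0.923) and -0.51 between untreated lines (adjusted p = 0.0729), and none passed.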

How the data were processed

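RNA of 8 samples was measured on whole-transcript arrays, and the authors deposited a table of 53617 probe sets by array. The submitters' processing notes name RMA and Transcriptome Analysis Console but no version or log base. The deposited values (0.0648 to 12.7) were read as log2, the scale RMA gives. RMA usually makes arrays share 1 distribution, which hides a change common to all genes. No genome build of the array design was given.

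The 23871 probe sets with exactly 1 symbol were used, the brightest for each gene. Genes exceeding 2.57, the median deposited value, on any array were tested. limma 3.58.1 (R 4.3.3; lmFit, eBayes) was fitted to 4 group means (4 residual degrees of freedom) and, for TNF across both lines, to line plus TNF (5). Tests were two-sided, with Benjamini-Hochberg adjustment over 16986 genes and a threshold of 0.05. With 1 simulated data set per comparison, the TNF tests within 1 line missed most changes the size of a doubling. The test of the difference of the TNF effects recovered 0% of doublings and 60% of log2 changes of 2. False calls were 7.65% to 12.4% of calls in all comparisons but TNF across both lines (4.76%), against a threshold of 0.05. Each share comes from a single draw and is imprecise. Fewer genes were changed in the simulation than were called between control lines. Fold changes near the floor are understated.

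The members, lists, tests and naming rule were chosen with earlier results of these data known. Values by array are given for members that passed, for HSPA5, HERPUD1, XBP1, DNAJB9 and the sensors, and for members whose control groups do not overlap. Up to 4 called genes by p are named for each other list and comparison; others named were chosen after their values were seen. Alternatives changed the filter, probe sets, normalization, variance model, array weights and model, or left out 1 array; those for the integrated stress response list were added after seeing the data.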

Additional observations from a re-analysis of the deposited data

How the results depend on the processing

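Among 155 results (31 members in 5 comparisons), 144 kept their side of the threshold in every alternative, 11 lost or gained a call in some, and 0 called values changed sign. Most of the 155 were not calls in the main fit, so the 144 say little about how firm a call is. Between control lines only the calls of ERO1A, ERO1B and EDEM1 held in every alternative, and those of DERL2, DERL3, PDIA4 and SEC61B did not. With TNF, the call of ERN1 in MUG-Chor1 held in every alternative, and that of ERO1A across both lines did not. The count of members called between control lines was 7, and 3 to 7 with a control left out; in all other alternatives it lay between 6 and 8. For TNF in MUG-Chor1 it was 1, and 2 with quantile normalization or with a variance trend, 3 with array weights, and 1 to 3 with a control left out. ERO1A gained the call in all of these that gave 2 or 3, and HYOU1 with array weights and without MUG-Chor1 control 3. For TNF across both lines it was 1, and 0 without a filter, with probe sets of several symbols included or with arrays shifted to a common median, and 0 to 1 with an array left out; the 1 left without the U-CH1 TNF array was ERN1. For TNF in U-CH1 and for the difference of the effects it was 0 in all alternatives. No alternative could leave out a TNF array within 1 line or for the difference of the effects. The 7 integrated stress response calls in MUG-Chor1 became 5 to 7 with a control left out. Replicate numbers do not pair the lines: deviations of same-numbered controls correlated at 0.04, -0.06 and 0.16, and with the replicate number as a block (replicate block) 6 members were called between control lines, SEC61B losing its call. Array number limits the precision, and no detection call was used here.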
